A study of Mus musculus with 4 samples.

Results

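Cxcl12, a chemokine made by stromal and endothelial cells, and 9 further genes were followed in Py-4-1. This is a mouse cell line grown from a hemangioendothelioma, an endothelial tumour. Cxcr4 and Ackr3 encode chemokine receptors and the others chemokines, and all 10 are called chemokine genes here. The 10 genes were chosen by name, and every probe set that the platform annotation assigns to 1 of them alone was kept. This gave 13 probe sets for 10 genes, of 12393 genes with a probe set of their own on the array. A pair of clones stably transfected with pcDNA/Prox1 and labelled as expressing Prox1, the homeobox factor that specifies lymphatic endothelium, was set against a pair of clones transfected with pcDNA, a control plasmid, so n = 2 in each group. All 4 clones came from Py-4-1, each was measured on 1 array, and neither the promoter that drives Prox1 nor a passage number is given in the labels. The series title names invasion by kaposiform hemangioendotheliomas as the question.

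Chemokines are small secreted proteins that steer migrating cells through receptors coupled to G proteins. They are grouped by the spacing of their first cysteines into CXC, CC and CX3C types. Endothelial cells bind them to heparan sulfate at the vessel surface, where they stop rolling leukocytes, and CXCL12 acting through CXCR4 also guides the growth of vessels themselves. ACKR3, formerly CXCR7, binds CXCL12 without G protein signalling and clears it.

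Prox1 itself read 62.4 and 44.3 in the clones labelled Prox1, against 52.1 and 60.5 in the pcDNA clones, in MAS5 intensity units, the signal the Affymetrix algorithm gives a probe set. These values did not separate the groups (log2 change -0.047 ± 0.20, SE, on the scale of intensity plus a pseudocount of 47, limma without the intensity filter, adjusted p = 0.963), so the clones are called Prox1-labelled here. Whether this probe set lies in the transfected sequence is not given in the labels. As a floor, 27 Bacillus probe sets that match no mouse gene were used. The highest of them read 88.4 and 97.5 in Prox1-labelled clones 1 and 2, against 45.3 and 101 in pcDNA clones 1 and 2, and the array medians lay between 163 and 179.7. Prox1 lay under this floor in both Prox1-labelled clones and above it in pcDNA clone 1 alone. Its values near the floor thus do not show that its level was equal in the groups. Of 12 endothelial marker genes, 9 exceeded this floor on all 4 arrays, while Cldn5 and Erg did so on 1 array each and Vwf on 0. The 12 had summed intensities of 44996 and 42991 in the Prox1-labelled clones, against 32226 and 41741 in the pcDNA clones. Of 11 leukocyte markers 3, Cd68, Csf1r and Lyz2, exceeded the floor on all 4 arrays. Cd68 read 708 and 806 in Prox1-labelled clones 1 and 2, against 847 and 970 in pcDNA clones 1 and 2. Csf1r read 375 and 335 in Prox1-labelled clones 1 and 2, against 240 and 443 in pcDNA clones 1 and 2. Lyz2 read 125 and 177 in Prox1-labelled clones 1 and 2, against 59.2 and 147 in pcDNA clones 1 and 2. The log2 changes of Cd68, Csf1r and Lyz2 were -0.25, 0.098 and 0.45, so they were mixed in sign. Ptprc, the pan-leukocyte phosphatase CD45, lay under the floor on every array, as did Itgam, Cd3e, Fcgr3 and Cd2. The sums over the 11 leukocyte markers were 1564 and 1663 in the Prox1-labelled clones, against 1539 and 1921 in the pcDNA clones. Of 12 fibroblast and mural markers 4, Acta2, Col1a2, Rgs5 and Cspg4, exceeded the floor on all arrays. Acta2 read 226 and 261 in Prox1-labelled clones 1 and 2, against 239 and 408 in pcDNA clones 1 and 2. Col3a1, Pdgfra, Pdgfrb, Dcn and Postn lay under the floor throughout. The sums over the 12 were 953 and 997 in the Prox1-labelled clones, against 963 and 1332 in the pcDNA clones. Of 8 epithelial markers 2, Krt8 and Cldn4, exceeded the floor on all arrays. The sums over the 8 were 603 and 518 in the Prox1-labelled clones, against 601 and 503 in the pcDNA clones. The part of these marker differences in the results below was not tested, and in a bulk sample fewer cells of a type and less RNA per cell cannot be told apart.

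The chemokine genes fell into those with a clear signal and those at the floor. Cxcl12, Cxcl10, Ccl2, Ccl5 and the brightest probe set of Cx3cl1 exceeded the highest Bacillus control on all 4 arrays, in 6 probe sets. The single probe sets of the receptors Cxcr4 and Ackr3, of Cxcl5 and 1 of Cx3cl1, 4 in all, exceeded it on 0 arrays. The remaining 3, of Cxcl1, Ccl7 and Cx3cl1, exceeded it only in pcDNA clone 1, the array with the lowest floor. The same 6 bright probe sets, of 5 genes, passed the intensity filter (above the array median on at least 2 arrays) and were tested together with all others. The brightest of Cx3cl1 passed it through the pcDNA clones alone, and the other 7 probe sets were read from the same model fitted without the filter.

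**Figure D1:**
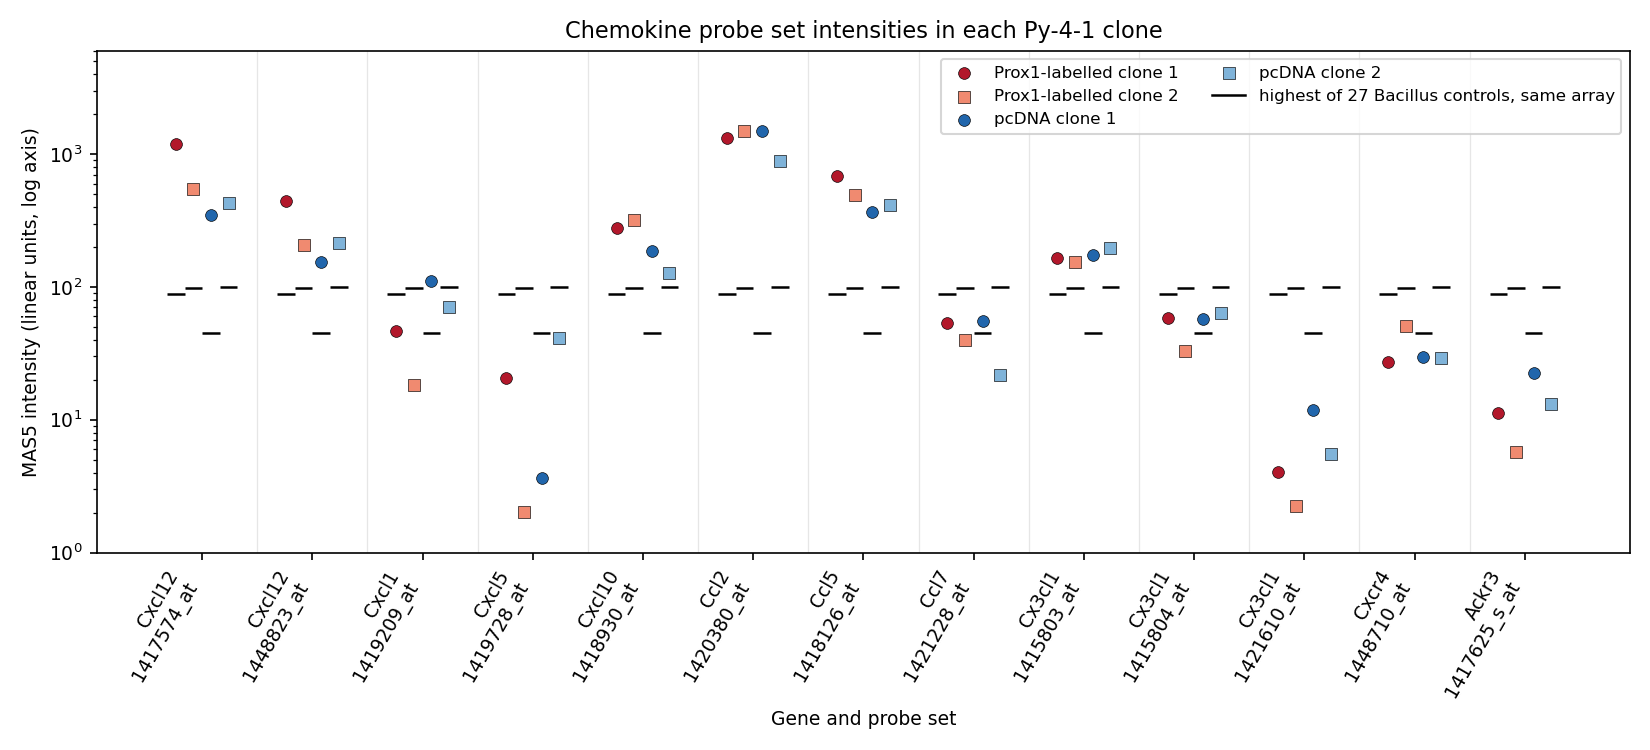
MAS5 intensity (log axis) of the 13 chemokine probe sets in each of the 4 clones, 1 point a clone, with a short black line at the highest of 27 Bacillus control probe sets on the same array. Cxcl12 stood at 1194 in Prox1-labelled clone 1 at its brighter probe set, and Cxcr4 and Ackr3 lay under the line on every array.

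Of the members tested, 0 passed the threshold of 0.05 in limma, where 0.103% of all 11656 probe sets tested did. At an unadjusted p under 0.05 stood 3 of the 6, in Cxcl12, Cxcl10 and Ccl5, against 14.5% of all tested. Without the filter 4 of 13 did, the same 3 and Cxcl1, against 10.2% of 22626 probe sets. The intensities of the groups did not overlap at 7 of the 13 probe sets, where 41.1% of all probe sets had no overlap. Higher in both Prox1-labelled clones were 3 (20.9% of all) and lower in both were 4 (20.2% of all). The 3 were Cxcl12, Cxcl10 and Ccl5, and the 4 lower ones were Cxcl1, Ackr3 and a pair of Cx3cl1 probe sets. Over all 13 the median log2 change was 0.15, with 7 positive and 6 negative, beside a median of 0.0025 and a positive share of 50.4% over all probe sets. The median was -0.093 without pcDNA clone 2, 0.017 without Prox1-labelled clone 2 and 0.056 with the larger pseudocount of 173. With 2 clones in each group the smallest p of an exact permutation test is 0.333.

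Cxcl12, the ligand of Cxcr4 and Ackr3, was measured by a pair of probe sets, and both were highest in Prox1-labelled clone 1. The brighter one (1417574_at) read 1194 and 545 in Prox1-labelled clones 1 and 2, against 346 and 431 in pcDNA clones 1 and 2. Both Prox1-labelled clones thus lay above both pcDNA clones, with means of 869 ± 459 and 388 ± 60.1 (SD, n = 2 each), a ratio of 2.24. The log2 change was 0.98 ± 0.32 and did not pass (adjusted p = 0.229). The dimmer one (1448823_at) read 442 and 205 in Prox1-labelled clones 1 and 2, against 154 and 214 in pcDNA clones 1 and 2. Here Prox1-labelled clone 2 lay within the range of the pcDNA clones, and the change was 0.62 ± 0.32 (adjusted p = 0.411).

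On the scale of log2(intensity + 47) the gap between the Prox1-labelled clones in Cxcl12 was larger than the difference between the groups. In linear units clone 1 read 2.19 times as high as clone 2 at the brighter probe set, where the ratio of group means was 2.24. At the dimmer it read 2.15 times as high, where that ratio was 1.76. As differences of log2(intensity + 47), which is damped by the pseudocount, these gaps were 1.07 and 0.96, and they ranked 48 and 72 by size among the 11656 probe sets tested. On that scale 60 probe sets differed at least 2-fold between the Prox1-labelled clones. Between the pcDNA clones the Cxcl12 gaps were -0.28 and -0.38 (clone 1 minus clone 2), ranked 5390 and 3809. Without Prox1-labelled clone 1 the change of the brighter probe set was 0.45, and without Prox1-labelled clone 2 it was 1.52 and passed (adjusted p = 0.0175). That last fit has 1 clone in the group and holds no spread between Prox1-labelled clones. The dimmer probe set ran from 0.14 without Prox1-labelled clone 1 to 1.09 without Prox1-labelled clone 2.

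The 5 genes whose mean-centred log2 values over the 4 clones lay closest to those of the brighter Cxcl12 probe set were Clu, Cmpk2, Baalc, Samd4 and Fzd6. Their Euclidean distances were 0.35, 0.36, 0.38, 0.46 and 0.47 log2 units, and that of the other Cxcl12 probe set was 0.38. Clu, which encodes the secreted chaperone clusterin, read 1152 and 733 in Prox1-labelled clones 1 and 2, against 342 and 478 in pcDNA clones 1 and 2. Cmpk2, a nucleotide kinase of mitochondria, read 578 and 289 in Prox1-labelled clones 1 and 2, against 197 and 166 in pcDNA clones 1 and 2. Fzd6, a Frizzled receptor of Wnt ligands, read 4873 and 3390 in Prox1-labelled clones 1 and 2, against 1628 and 2578 in pcDNA clones 1 and 2. All of them were highest in Prox1-labelled clone 1, which follows from choosing them by closeness to Cxcl12 and is no separate result. Among the chemokine genes the closest was Ccl5, at 0.64.

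**Figure D2:**
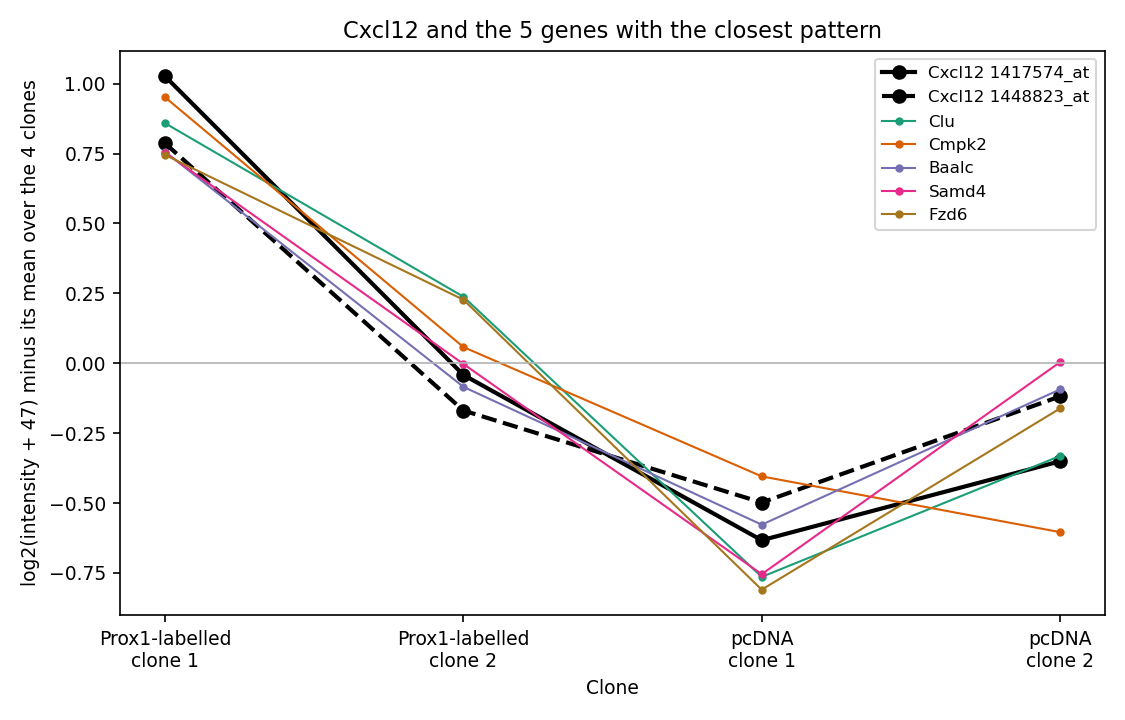
log2(intensity + 47) minus its mean over the 4 clones (vertical axis) in each clone (horizontal axis) for both Cxcl12 probe sets in black and the 5 genes closest to the brighter one. Every line peaks in Prox1-labelled clone 1, which for the 5 genes follows from choosing them by closeness to Cxcl12. Lines only join the points of a gene.

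Cxcl10, an interferon-induced ligand of the receptor CXCR3 on activated T cells, was higher in both Prox1-labelled clones without passing the test. It read 279 and 319.9 in Prox1-labelled clones 1 and 2, against 188 and 127 in pcDNA clones 1 and 2. Its means of 299 ± 28.9 and 157 ± 43.1 (SD, n = 2 each) gave a ratio of 1.90 and a log2 change of 0.78 ± 0.23 (adjusted p = 0.206). In contrast to Cxcl12, the Prox1-labelled clones differed little, by -0.17 on the log2 scale (clone 1 minus clone 2). The pcDNA clones differed more, by 0.43. The change of Cxcl10 kept its sign on leaving out any clone, between 0.56 and 0.99.

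Cxcl1, a ligand of CXCR2 that draws neutrophils, had the opposite sign, near the floor. It read 46.6 and 18.2 in Prox1-labelled clones 1 and 2, under the highest Bacillus control in both, against 110.0 and 70.3 in pcDNA clones 1 and 2, above it in clone 1 alone. The log2 change was -0.80 ± 0.27 (fit without the filter, adjusted p = 0.440), and no fold is given for signals at the floor. It moved to -1.60 with no pseudocount and to -0.36 with a pseudocount of 173. Cxcl5, which also acts on CXCR2, read 20.7 and 2.02 in Prox1-labelled clones 1 and 2, against 3.67 and 41.3 in pcDNA clones 1 and 2. All 4 values lay under the floor and the groups overlapped (-0.22 ± 0.29, adjusted p = 0.855).

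The regions before the start sites of Cxcl12, Cxcl10 and Cxcl1 are shown because these 3, of the 6 members with an entry in the RefSeq promoter table (GRCm38.p6), stood at an unadjusted p under 0.05, higher for the first pair and lower for Cxcl1. Each sequence gives the 250 bases before the gene's start on the gene's own strand, and capitals mark matches to any of 4 motifs. These were a kB-type motif for NF-kB (GGGA and then TTCC with any 2 bases between), an interferon-type motif (GAAA and again GAAA with any 2 bases between) and a GC box (GGGCGG), all on both strands, and a TATA box (TATAAA) on the gene's strand. Cxcl12 lies on the plus strand at chr6:117168285-117168534, Cxcl10 on the minus strand at chr5:92348890-92349139 and Cxcl1 on the plus strand at chr5:90890995-90891244.
Cxcl12: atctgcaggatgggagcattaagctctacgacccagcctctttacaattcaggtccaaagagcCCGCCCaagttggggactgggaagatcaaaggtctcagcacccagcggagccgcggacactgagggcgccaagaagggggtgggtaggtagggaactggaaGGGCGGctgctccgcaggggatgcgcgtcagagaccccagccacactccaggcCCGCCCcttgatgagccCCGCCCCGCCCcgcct
Cxcl10: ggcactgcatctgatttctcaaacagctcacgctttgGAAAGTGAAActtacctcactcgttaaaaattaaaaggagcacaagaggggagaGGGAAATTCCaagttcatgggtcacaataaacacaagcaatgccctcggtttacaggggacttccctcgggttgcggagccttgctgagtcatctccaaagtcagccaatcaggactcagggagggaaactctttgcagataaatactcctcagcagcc
Cxcl1: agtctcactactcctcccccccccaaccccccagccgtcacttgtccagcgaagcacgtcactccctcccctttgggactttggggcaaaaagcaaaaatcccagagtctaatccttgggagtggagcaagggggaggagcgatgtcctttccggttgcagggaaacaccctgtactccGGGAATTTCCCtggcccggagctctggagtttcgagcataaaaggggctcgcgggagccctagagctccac

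The windows of these genes held different motifs. That of Cxcl12 held 5 GC box matches, the last 2 of them overlapping by a base, and none of the other 3 motifs. At least 1 GC box was found in 32.7% of all 32851 promoter windows of this length, and the share with 5 was not counted. That of Cxcl10 held 1 kB-type match, ending 150 bases before the start, and 1 interferon-type match, ending 204 bases before it. That of Cxcl1 held a kB-type match on either strand, overlapping in 1 stretch that ends 61 bases before the start. The kB-type motif was found in 1.21% of all windows, the interferon-type motif in 2.98% and the TATA box in 7.59%. A match is a description of the letters, not a site in use, and Ccl2, Ccl5, Ccl7 and Cxcl5 had no entry.

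Among the CC ligands, Ccl5, which draws T cells and monocytes, was higher in both Prox1-labelled clones, and Ccl2, the main monocyte attractant, was not set apart. Ccl5 read 685 and 492 in Prox1-labelled clones 1 and 2, against 367 and 412 in pcDNA clones 1 and 2. Its log2 change of 0.53 ± 0.22 did not pass (adjusted p = 0.315), and it ran from 0.31 without Prox1-labelled clone 1 to 0.75 without Prox1-labelled clone 2. Like Cxcl12 it was highest in Prox1-labelled clone 1, by a smaller gap of 0.44 on the log2 scale.

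Ccl2 read 1312 and 1484 in Prox1-labelled clones 1 and 2, against 1491 and 886 in pcDNA clones 1 and 2. pcDNA clone 1 read as high as the Prox1-labelled clones and pcDNA clone 2 stood apart. The log2 change of Ccl2 was 0.27 ± 0.25 (adjusted p = 0.682), with 0.63 without pcDNA clone 1 and -0.093 without pcDNA clone 2. Ccl7, another monocyte attractant that lies beside Ccl2 in the genome, read 53.4 and 39.6 in Prox1-labelled clones 1 and 2, against 55.7 and 21.8 in pcDNA clones 1 and 2. Its groups overlapped near the floor (0.15 ± 0.24, adjusted p = 0.882).

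Cx3cl1, the membrane-bound chemokine fractalkine, had a negative change at each of its 3 probe sets, within the error of the fit at the brightest. That one (1415803_at) read 166 and 154 in Prox1-labelled clones 1 and 2, against 174 and 198 in pcDNA clones 1 and 2. The log2 change was -0.17 ± 0.22 (adjusted p = 0.781). The second (1415804_at) read 57.9 and 32.9 in Prox1-labelled clones 1 and 2, against 57.1 and 64.0 in pcDNA clones 1 and 2, and the third (1421610_at) lay between 2.26 and 11.7 on all arrays. Their changes were -0.23 ± 0.21 and -0.15 ± 0.11, with adjusted p of 0.768 and 0.708. With no pseudocount they were -0.47 and -1.42, and the change of 1415804_at was -0.036 without Prox1-labelled clone 2.

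The receptors of Cxcl12 gave no signal above the floor. Cxcr4, the receptor that passes on the CXCL12 signal, read 27.2 and 50.9 in Prox1-labelled clones 1 and 2, against 29.6 and 28.9 in pcDNA clones 1 and 2. The groups overlapped, and the change of 0.16 ± 0.19 (adjusted p = 0.830) was -0.039 without Prox1-labelled clone 2. Ackr3, the scavenging receptor, read 11.2 and 5.74 in Prox1-labelled clones 1 and 2, against 22.5 and 13.1 in pcDNA clones 1 and 2 (-0.22 ± 0.14, adjusted p = 0.631). All of its values were dim. Each receptor rests on 1 probe set here, and a dim probe set does not show that the transcript is absent.

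**Figure D3:**
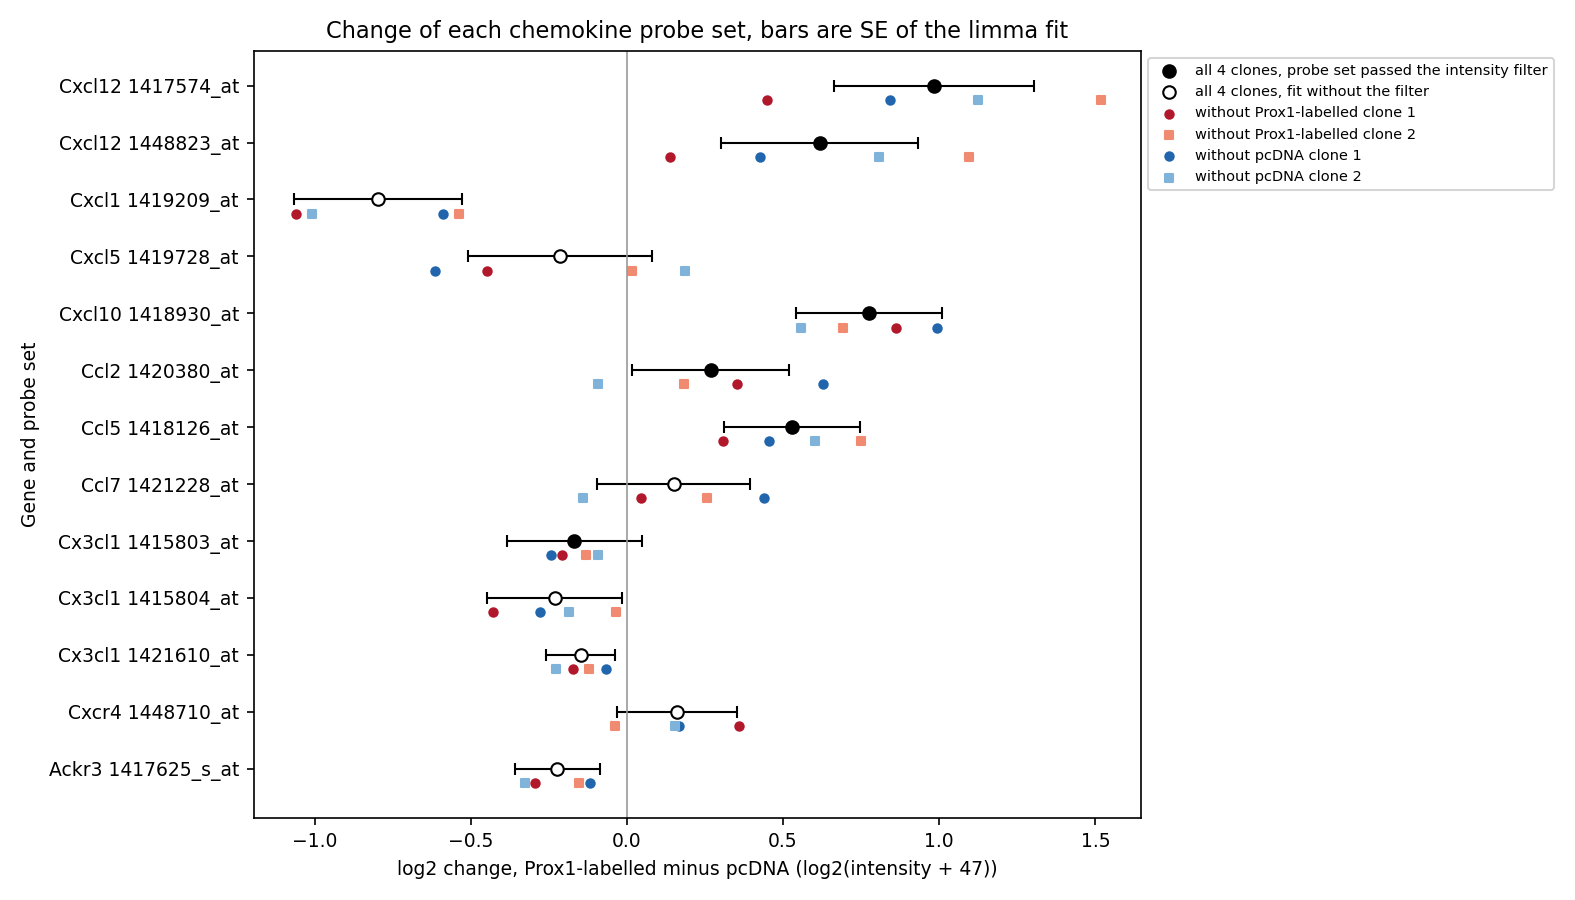
log2 change of each chemokine probe set, Prox1-labelled minus pcDNA clones, with bars for the SE of the limma fit and small points for the change when 1 clone is left out. Cxcl12 runs from 0.45 to 1.52 at its brighter probe set, Cxcl10 and Ccl5 stay positive, and Ccl2, Ccl7, Cxcl5 and Cxcr4 cross 0.

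Other ligands and receptors of the family were mostly dim. Of 10 further CXC ligands measured (11 listed) 3 passed the filter, and of 16 further CC and XC ligands (18 listed) 2 did. Of 20 further receptors (22 listed) 4 did. In the 3 lists 0 genes passed the threshold, where 0.115% of 6949 genes tested did, and 1, 0 and 0 stood at an unadjusted p under 0.05, where 14.3% of all did. Over all 46 genes measured in these lists, read without the filter, 27 had a negative and 19 a positive change, with a median of -0.099, beside a positive share of 50.4% and a median of 0.0025 over all probe sets. The 9 tested ones were all negative. Of these, Ccl8 and Ccr6 passed the filter through the pcDNA clones alone, where they were higher. The rest had both Prox1-labelled clones above the array median. The 9 were not tested as a set and the 46 were mixed in sign, so no direction is read from this count. Pf4, platelet factor 4, read 180.0 and 197 in Prox1-labelled clones 1 and 2, against 421 and 316 in pcDNA clones 1 and 2. Both Prox1-labelled clones were lower (-0.81 ± 0.22, adjusted p = 0.175). The adjusted p was 0.0245 without pcDNA clone 2 and from 0.198 to 0.687 without any other clone.

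The remaining genes named in these lists had smaller changes. Ccl4, an inflammatory CC ligand, read 236 and 242 in Prox1-labelled clones 1 and 2, against 310.2 and 304 in pcDNA clones 1 and 2 (-0.31, adjusted p = 0.527). Ccl8 gave -0.32 (adjusted p = 0.552) and Cxcl17 gave -0.32 (adjusted p = 0.537). Of the receptors, Ccr6, which binds CCL20, gave -0.41 (adjusted p = 0.472). Ccr10 gave -0.43 (adjusted p = 0.526) with a single high value of 437 in pcDNA clone 1, and its change was -0.021 without that clone (adjusted p = 0.975) and -0.84 without pcDNA clone 2 (adjusted p = 0.0376).

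More of the genes that carry or shorten the receptor signal passed the filter. Of 22 genes of chemokine receptor signalling measured (24 listed) 16 were tested, 10 positive and 6 negative, with a median of 0.10. In limma 0 passed, beside 0.115% of all 6949 genes tested. At an unadjusted p under 0.05 stood 3 of the 16, beside 14.3% of all genes tested. Rgs2, a GTPase activator that shortens G protein signals, read 1506 and 1111 in Prox1-labelled clones 1 and 2, against 281 and 1029 in pcDNA clones 1 and 2. pcDNA clone 1 stood far under the rest, and the change of 1.17 ± 0.46 (adjusted p = 0.289) was 0.32 without it (adjusted p = 0.474) and 2.03 without pcDNA clone 2 (adjusted p = 0.000941). Its other probe set (1419248_at) gave 1.39 (adjusted p = 0.207). Gnb1, a G protein beta subunit, read 3335 and 3467 in Prox1-labelled clones 1 and 2, against 2530 and 1778 in pcDNA clones 1 and 2. It was higher in both Prox1-labelled clones (0.67 ± 0.21, adjusted p = 0.214), with 0.79 at a second probe set (1454696_at, adjusted p = 0.152) and -0.29 at a dim one (1425908_at, adjusted p = 0.737). The brightest probe set of Gnb1 gave 0.92 without pcDNA clone 1 (adjusted p = 0.0442) and 0.42 without pcDNA clone 2 (adjusted p = 0.133), with adjusted p of 0.695 and 0.647 without Prox1-labelled clones 1 and 2.

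Genes that cleave or present chemokines showed no common direction. Of 18 measured (20 listed) 13 were tested, 5 positive and 8 negative, with a median of -0.073. In limma 0 passed, beside 0.115% of all 6949 genes tested, with 0 at an unadjusted p under 0.05, beside 14.3%. Furin, a proprotein convertase, read 647 and 549 in Prox1-labelled clones 1 and 2, against 393 and 461 in pcDNA clones 1 and 2 (0.44 ± 0.20, adjusted p = 0.357). Mmp2, a gelatinase that can cleave CXCL12, gave 0.44 (adjusted p = 0.430) and 0.54 at its other probe set (1416136_at, adjusted p = 0.515), with 0.21 without pcDNA clone 1 and 0.23 without Prox1-labelled clone 1 at the first.

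Factors known to act upstream of Cxcl10 and of the inflammatory chemokines were measured in 2 lists. Of 20 NF-kB pathway genes (22 listed) 14 were tested, 7 positive and 7 negative, with a median of 0.071. None of them passed, the count in limma being 0, beside 0.115% of all 6949 genes tested. At an unadjusted p under 0.05 stood 3 of the 14, beside 14.3% of all genes tested. Bcl3, a nuclear partner of NF-kB subunits, read 184 and 351 in Prox1-labelled clones 1 and 2, against 123 and 140.1 in pcDNA clones 1 and 2 (0.77 ± 0.28, adjusted p = 0.269). It passed the filter through the Prox1-labelled clones alone, where it was higher, and its change was 0.38 without Prox1-labelled clone 2 and 1.16 without Prox1-labelled clone 1. Ikbkg, the regulatory subunit NEMO of the IkB kinase, gave 0.53 (adjusted p = 0.277) at its brightest probe set and 0.13, 0.67 and 0.28 at 3 others, with adjusted p from 0.220 to 0.814.

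Of 15 STAT and IRF factors and their regulators (16 listed) 13 were tested, 7 positive and 6 negative, with a median of 0.087. Past the threshold were 0 in limma, beside 0.115% of all 6949 genes tested. At an unadjusted p under 0.05 stood 5 of the 13, beside 14.3% of all genes tested. Irf7, an interferon regulatory factor, read 2025 and 2191 in Prox1-labelled clones 1 and 2, against 902 and 958 in pcDNA clones 1 and 2. The means were 2108 ± 118 in the Prox1-labelled and 930.0 ± 40.2 in the pcDNA clones (SD, n = 2 each). The log2 change was 1.14 ± 0.18 (SE of the limma fit, adjusted p = 0.0726). The adjusted p was 0.0345 without pcDNA clone 1 and 0.00555 without pcDNA clone 2, but 0.101 and 0.152 without Prox1-labelled clones 1 and 2 and 0.367 without the filter. Socs3, a feedback inhibitor of STAT signalling, read 273 and 421 in Prox1-labelled clones 1 and 2, against 685 and 536 in pcDNA clones 1 and 2 (-0.76 ± 0.24, adjusted p = 0.223). Leaving out pcDNA clone 2 gave -0.92 (adjusted p = 0.0435) and leaving out pcDNA clone 1 gave -0.59 (adjusted p = 0.243). Leaving out Prox1-labelled clone 2 gave -1.03 (adjusted p = 0.244) and leaving out clone 1 of that group gave -0.48 (adjusted p = 0.973). Its other probe sets gave -0.46 (1416576_at) and 0.099 (1456212_x_at), so the probe sets of Socs3 differ in sign.

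**Figure D4:**
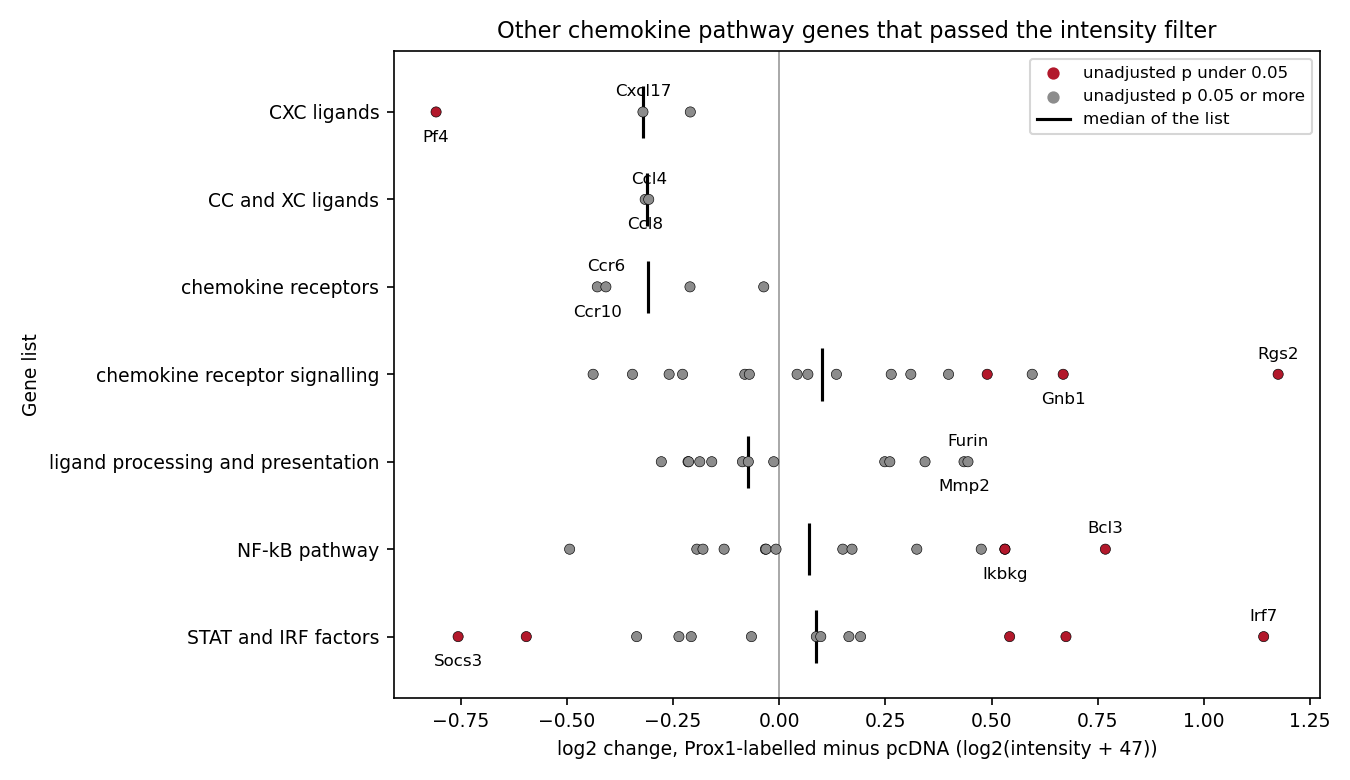
log2 change, Prox1-labelled minus pcDNA clones, of the genes of 7 chemokine pathway lists that passed the intensity filter, 1 point a gene at its brightest probe set, with red for an unadjusted p under 0.05 and a line at each list's median. Named are the genes described in the text, with Rgs2 and Irf7 at the right and Pf4 and Socs3 at the left.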

How the data were processed

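RNA was hybridised to 4 Affymetrix arrays of 1 colour, 1 for each of 2 Prox1-labelled and 2 pcDNA clones of Py-4-1, grouped by sample title. The labels give no batch or date. The deposited values are linear probe set intensities, and the submitters' processing notes name MAS5, with no version given in the sources used here. Each deposited column had a mean of 500 after trimming 2% at either end, so the arrays had been scaled to 1 target. No other normalization was added, no detection calls were read, and precision is limited by the small number of arrays.

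Of 22690 probe sets, 64 Affymetrix controls were left out. In the platform annotation 20380 of the rest have a single gene, 691 have several genes and 1555 have no gene, and 20351 of the single-gene kind matched the RefSeq table of GRCm38.p6 by Entrez identifier. Values were analysed as log2(intensity + 47), 47 being the 25th percentile of all values, which understates the changes of dim ones. Those above the array median on at least 2 arrays were tested with limma 3.58.1 in R 4.3.3 (intensity trend, 2-sided, Benjamini-Hochberg adjustment over all 11656 tested, threshold 0.05). Errors of log2 changes are SEs of that fit. Limma moves the variance of each probe set toward that of probe sets of like intensity. SEs and p-values thus measure a moderated spread between clones, not the spread of the probe set's own clones alone. In that spread clone, culture and array cannot be told apart.

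Lists used 1 probe set a gene, that with the highest mean log2 value. All members were named, from each of 7 pathway lists up to 4 genes past the threshold (if none, the 2 of lowest unadjusted p), and the 5 genes closest to Cxcl12. Marker genes and further probe sets of named genes were named after their values were seen. The members and lists were chosen with earlier results of these data known. Alternatives were quantile normalization, no pseudocount or one of 173, no filter or one at the 75th percentile, no intensity trend, the clone number as a block, and leaving out each clone. Equal clone numbers did not deviate together (correlation -0.009 over probe sets). The procedure was tested on simulated data.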

Additional observations from a re-analysis of the deposited data

How the results depend on the processing

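The count of 12 probe sets past the threshold was 4 under quantile normalization, 0 without the filter (with 2300 at an unadjusted p under 0.05) and 110 with the clone number as a replicate block. It was 42 without Prox1-labelled clone 1, 67 without Prox1-labelled clone 2, 133 without pcDNA clone 1 and 1150 without pcDNA clone 2. Fits without a clone leave 1 array in its group, assumed to vary like the other group. The count of chemokine probe sets past it stayed at 0 except without Prox1-labelled clone 2 (range 0 to 1, Cxcl12), and the replicate block changed no member's call. The clone numbers are not known to pair the clones. Pathway list genes past the threshold numbered 0, with 1 under the replicate block (Irf7, adjusted p = 0.0203) and 0 to 10 on leaving out a clone, 2 without pcDNA clone 1 and 10 without pcDNA clone 2. The median change over the 13 chemokine probe sets (0.15) was 0.28 without a pseudocount, 0.056 with the larger one and 0.12 under quantile normalization, and ran from -0.093 to 0.17 on leaving out a clone. Signs turned on leaving out a clone for Cxcl5 (from -0.62 without pcDNA clone 1 to 0.18 without pcDNA clone 2, with 0.017 without Prox1-labelled clone 2), Ccl2 (from -0.093 without pcDNA clone 2 to 0.63 without pcDNA clone 1), Ccl7 (from -0.14 to 0.44 without the same clones), Cxcr4 (from -0.039 without Prox1-labelled clone 2 to 0.36 without Prox1-labelled clone 1) and Prox1 (from -0.18 without Prox1-labelled clone 1 to 0.083 without Prox1-labelled clone 2, with 0.012 without pcDNA clone 2). The cause was not tested. Of the chemokine changes under single alternatives, 118 kept sign and side of the threshold, 5 turned and 1 newly passed. With the filter at the 75th percentile Ccl2 alone of the members was still tested. The alternatives for pathway lists and for named genes that are no members were added after seeing the data.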
